A study of Mus musculus with 4 samples.

Results

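The 36 genes described here encode parts of the lysosome and were taken by symbol from a list of lysosomal genes, out of 28692 genes in the count tables. They fall into 15 genes of the vacuolar proton pump (V-ATPase), 5 genes of lysosomal membrane proteins, 14 genes of lysosomal hydrolases and the proteins that assist them, and 2 regulators, *Tfeb* and *Mcoln1*. All were measured in single myeloid cells, sorted as CD45+/CD11b+, from the cortex and hippocampus of 4 male C57BL/6J mice at postnatal day 90, with 1 library per mouse. Every mouse had received PBS through the tail vein, 24 hours before tissue collection per the labels and after another interval per the study's methods, and the tissue was dissociated mechanically by cold Dounce homogenisation. The labels give this 1 group, called cold Dounce, PBS (n = 4), and no untreated or second group, so the comparisons below are between libraries and between kinds of cells inside each library. Replicates 1 to 4 only name the libraries. The study's text records that the sorter clogged on the final animal, its Sample 4, which was sorted again after extra time at room temperature. Replicate 4 is the last library in label order, but the labels number the libraries differently and do not themselves mark this animal.

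The lysosome is the acidic compartment in which microglia, the resident macrophages of the brain, break down material they have taken up. The V-ATPase acidifies it with a membrane sector (V0) that conducts protons and a cytosolic sector (V1) that hydrolyses ATP, heavily glycosylated proteins such as LAMP1 and LAMP2 line its membrane, and soluble hydrolases cut proteins, lipids and glycans inside it. TFEB is a transcription factor that binds E-box sequences in the promoters of many lysosomal genes, and MCOLN1 is a calcium channel of the lysosomal membrane that acts upstream of TFEB.

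Cells were kept when they showed 400 genes or more and no more than 10% of their UMIs (unique molecular identifiers, 1 for each captured transcript) came from mitochondrial genes. The 13002 kept cells numbered 3576, 3692, 2576 and 3158 in replicates 1 to 4. The libraries held 7055985, 11267195, 5841671 and 9000804 UMIs, with medians of 1905, 2936, 2197 and 2786 per cell. All 10 markers of microglia were detected in every library, with a summed level of 38670 to 39970 counts per 1000000 UMIs (CPM). The 8 markers of border macrophages summed to 14.3 to 85.1 CPM and the 5 markers of monocytes to 9.41 to 48.6 CPM, while the 5 neutrophil markers were at 0 in all libraries. Astrocyte markers summed to 220 to 279 CPM and oligodendrocyte markers to 50.6 to 60.7 CPM. B cell markers summed to 46.6 to 51.3 CPM and endothelial markers to 21.4 to 28.4 CPM. Among 12921 distinct cell barcodes, 81 occurred in 2 or more libraries, and these were kept.

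The promoters of 10 of the 31 members with an entry in the RefSeq promoter table (GRCm38.p6, 250 bases before to 50 bases after the start) held TCACGTG on either strand, the core of the E-box known to be bound by TFEB. That is 32.3% of these members, against 4.29% of the 27025 genes in the table and 8.09% of the 5949 table genes with at least 10 CPM in these cells. The shorter CACGTG, contained in it, was in 32.3% of the members, 8.09% of all table genes and 13.1% of those with at least 10 CPM. The palindrome TCACGTGA, which counts as a match to TCACGTG on both strands, was in 12.9%, 1.12% and 2.81%, and the same palindrome with G before and C after it in 0 members, 0.370% and 1.04%. By class, TCACGTG was found in 4 of 11 V-ATPase genes, 1 of 5 membrane genes, 4 of 13 hydrolase genes and 1 of 2 regulators. A match describes letters in the window and is no evidence of binding. The windows below are shown because they hold the motif upstream of the RefSeq start, with matches on either strand in capitals, 5′ to 3′ on the strand of the gene.
Lamp1, chr8:13159088-13159160, plus strand: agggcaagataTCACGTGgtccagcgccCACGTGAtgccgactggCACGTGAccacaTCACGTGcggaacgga
Atp6v0b, chr4:117887330-117887377, minus strand: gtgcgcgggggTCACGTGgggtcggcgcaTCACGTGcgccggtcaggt
Atp6v1a, chr16:44139372-44139402, minus strand: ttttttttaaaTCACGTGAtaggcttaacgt
Lgmn, chr12:102439124-102439153, minus strand: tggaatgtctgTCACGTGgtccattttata
Gaa, chr11:119267811-119267840, plus strand: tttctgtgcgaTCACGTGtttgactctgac
Glb1, chr9:114401018-114401047, plus strand: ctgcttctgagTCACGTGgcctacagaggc
Naglu, chr11:101070009-101070038, plus strand: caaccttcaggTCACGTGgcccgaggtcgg
Mcoln1, chr8:3500436-3500465, plus strand: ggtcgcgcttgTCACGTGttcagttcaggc
*Lamp1* had 4 matches within 62 bases of its start, all inside the printed window, which ends next to the first base of the gene in GENCODE M21. The *Gaa* and *Glb1* windows also lay outside the annotated genes. The windows of *Lgmn* and *Atp6v1a* lay in introns, since GENCODE places a further start upstream, and 4 bases of the *Atp6v0b* window, 9 of the *Mcoln1* window and 27 of the *Naglu* window were in annotated exons. *Atp6v0d1* and *Atp6v0e* had the motif at or after the start, and these are not printed. *Mcoln1* had further matches downstream of the one shown.

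Together the 36 genes took 22385 ± 536 CPM (SD, n = 4), or 2.24% of all UMIs. Each UMI of this 3′ assay stands for 1 transcript end, so levels are not divided by gene length, although capture may differ between genes. The hydrolase class held most of it. Its summed level was 14908, 15487, 14710.2 and 15498 CPM in replicates 1 to 4, a mean of 15151 ± 403 CPM (SD, n = 4). The membrane class, with 5 genes, summed to 3716, 3850.1, 3629.6 and 3656 CPM (3713 ± 98.3, SD, n = 4), and the V-ATPase class, with 15 genes, to 3449, 3646, 3403 and 3331 CPM (3457 ± 135, SD, n = 4). The 4 libraries of each class lay close together, and those of the membrane and V-ATPase classes overlapped. Of the 36 members, 35 had a mean of at least 10 CPM and 27 of at least 100 CPM. Exact Poisson 95% intervals, which cover counting error only, were 14818 to 14999 CPM for the hydrolase class and 3406 to 3492 CPM for the V-ATPase class in replicate 1.

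Among the hydrolases, *Lgmn* was the most abundant, and it made up 43.8% of its class. *Lgmn* encodes legumain, a cysteine protease that cuts after asparagine and processes cathepsins, and its level was 6407, 6669.6, 6605 and 6878 CPM in replicates 1 to 4. *Psap*, the precursor of the saposins that present sphingolipids to their enzymes, was at 2678, 2804, 2636 and 2825 CPM. *Grn*, which encodes progranulin, a lysosomal glycoprotein whose loss causes a lysosomal storage disorder and frontotemporal dementia, was at 1859.7, 1917, 1679.7 and 1790.3 CPM. *Hexa*, the alpha subunit of the hexosaminidase that degrades GM2 ganglioside, was at 1331, 1452, 1212.5 and 1303 CPM. *Asah1*, acid ceramidase, followed at 638, 637, 643 and 675 CPM. The ranges of these 5 genes did not overlap. The other 9 members ran from *Man2b1* (lysosomal alpha-mannosidase, mean 545 CPM) through *Ppt1*, *Gusb*, *Tpp1*, *Gm2a*, *Naglu* and *Lipa* to *Gaa* (acid alpha-glucosidase, 76.6 CPM) and *Glb1* (beta-galactosidase, 71.7 CPM), a 92.6-fold range from *Lgmn* to *Glb1*.

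The membrane genes spanned a narrower range, 7.61-fold from the highest to the lowest. *Lamp1* was at 1279, 1373, 1221 and 1284 CPM in replicates 1 to 4. *Cd68*, the heavily glycosylated LAMP-family protein used as a marker of phagocytic macrophages, was at 1017, 998, 1089 and 1037 CPM. *Cd63*, a tetraspanin of late endosomes and lysosomes, was at 755, 823, 673 and 668 CPM. These 3 genes had ranges that did not overlap. *Lamp2*, the partner of *Lamp1* that also serves in chaperone-mediated autophagy, was lower at 485, 472, 491 and 507 CPM, and *Scarb2*, the receptor that carries beta-glucocerebrosidase to the lysosome, was lowest at 180, 184, 155 and 159 CPM.

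Subunits of the V-ATPase, which assemble into 1 complex, differed 112-fold in their UMI levels. *Atp6v0b*, a proteolipid of the V0 ring, was highest at 1010.2, 1081, 975 and 926 CPM. *Atp6v1g1*, a peripheral stalk subunit of V1, was at 413, 467, 423 and 421 CPM, and *Atp6ap1*, an assembly factor, at 359, 369, 350.2 and 353 CPM. *Atp6ap2*, the accessory protein also known as the prorenin receptor, was at 314, 333, 324 and 339.6 CPM and *Atp6v1f* at 294, 321, 296 and 284 CPM. The last pair overlapped. The subunits that form the catalytic head were lower, with *Atp6v1b2* at a mean of 94.7 CPM and *Atp6v1a* at 35.5 CPM, and *Atp6v0c*, the main proteolipid of the V0 ring, was at 8.90 CPM. Both regulators were low. *Tfeb* was at 33.3, 38.9, 38.0028 and 33.3 CPM and *Mcoln1* at 26.5, 28.2, 30.1 and 27.9 CPM.

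**Figure D1:**
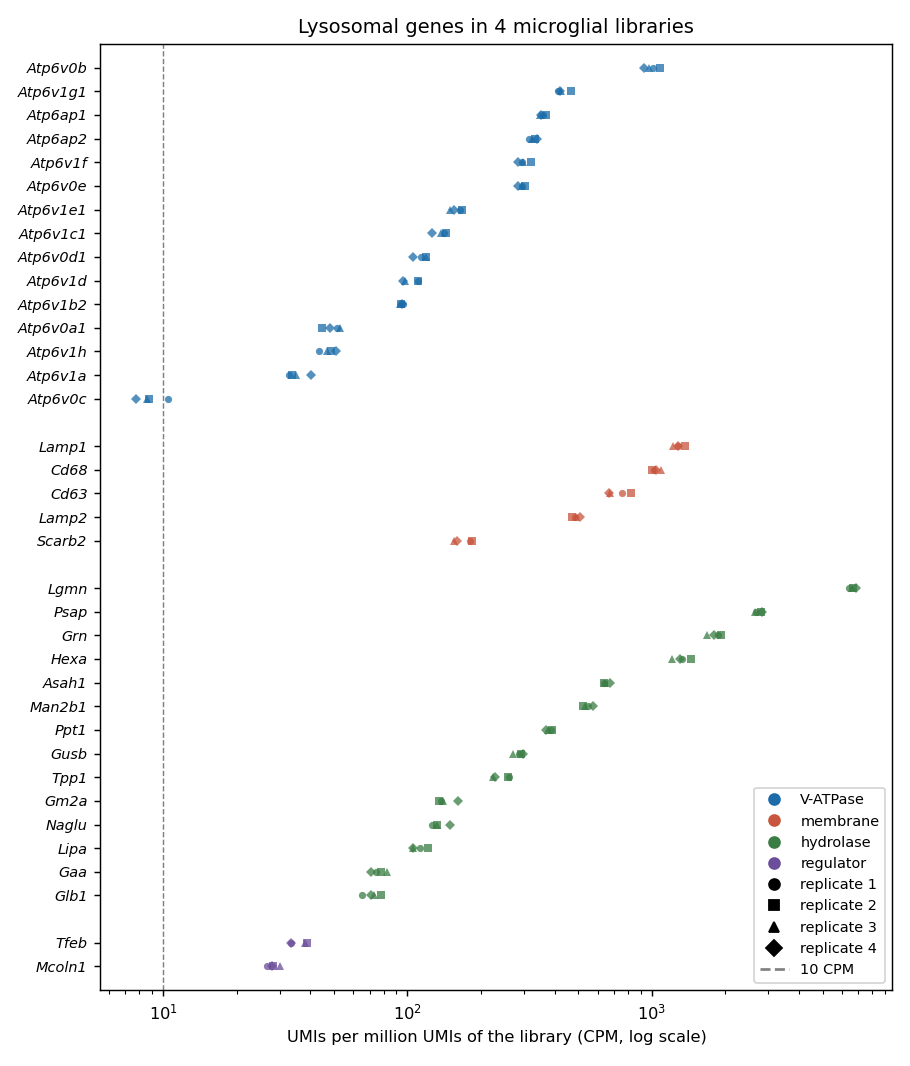
Level (CPM, log axis) of each of the 36 genes in each of the 4 libraries, ordered by mean within each class. Symbols mark replicates and the dashed line marks 10 CPM. *Lgmn* lies at 6407 to 6878 CPM and *Atp6v0c*, below the line in 3 of 4 libraries, at 7.78 to 10.5 CPM.

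All 36 members matched a protein-coding gene of GENCODE M21 and they lay on 15 chromosomes. *Glb1* shares its strand and position with *Tmppe*, and 8 members overlap a gene on the other strand. In the last 400 bases of the transcripts, where this assay reads, 39.3% of the 50-base windows of *Cd63* occurred unchanged in the pseudogene *Cd63-ps*, and 16.2% of those of *Atp6v1f* in a processed pseudogene. The other 34 members shared none. Reads from such shared stretches cannot be assigned to 1 gene, so levels of *Cd63* and *Atp6v1f* are uncertain to that extent.

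Members varied little between mice. *Asah1* was the only member with 1 library apart by Dixon's range test (two-sided) on log2(CPM + 1), with replicate 4 above the others (gap of 0.836 times the range, above the 95% critical value for 4 values). It was no longer apart on DESeq2-scaled CPM (0.807), in reference cells (0.720), in cells of at least 1000 genes (0.593) or without the 1% of cells with most UMIs (0.803). That is 1 of 35 members, or 2.86%, against 4.62% of the 7656 genes with at least 10 CPM and 4.41% of those with at least 100 CPM, so single libraries stood apart among members about as rarely as among all genes. The median SD of log2(CPM + 1) over the 4 libraries was 0.08 for the 35 members and 0.11 for all genes of at least 10 CPM, and 0.08 for both when only genes of at least 100 CPM were taken. The largest spreads belonged to *Cd63* (SD 0.14 on the log2 scale), *Atp6v1a* (0.13) and *Scarb2* (0.12). *Cd63* was lower in replicates 3 and 4 than in 1 and 2. *Scarb2* was lower in replicates 3 and 4 as well, and *Atp6v1a* was highest in replicate 4 at 40.4 CPM against 32.9 to 35.1 CPM in the others. The smallest spread was that of *Atp6v1b2*, 96.1, 94.1, 93.6 and 94.9 CPM. Counting error at 95% was exceeded by 27 of 35 members, against 40.9% of all genes of at least 10 CPM, a share that rises with the number of UMIs behind a gene.

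Whether members vary together from cell to cell was described in the 11897 reference cells, those in none of the states defined further on, after each cell was thinned to 1000 UMIs. Membrane and hydrolase genes varied together weakly and the V-ATPase genes did not follow either. Pearson's correlation of the summed UMIs per cell of the membrane and hydrolase classes was 0.106 on average over the 4 libraries, between 0.0900 and 0.118. V-ATPase with membrane gave 0.0272 (-0.00477 to 0.0553), and V-ATPase with hydrolase 0.0154 (-0.0106 to 0.0450). These are descriptions over cells that share a library, and no p is given. The variance of the summed UMIs divided by their mean, 1 for pure counting noise, was 1.01 for the V-ATPase class, 1.20 for the membrane class and 1.34 for the hydrolase class. The mean sums were 3.50, 3.70 and 15.3 UMIs per cell in that order. A ratio above 1 grows with the mean, so the ratios do not rank the classes by how variable they are. Without the most abundant member of each class the hydrolase ratio was 1.23, at a lower mean of 8.52 UMIs, and the membrane–hydrolase correlation 0.106. In sparse counts correlations of this size are no finding about single cells.

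**Figure D2:**
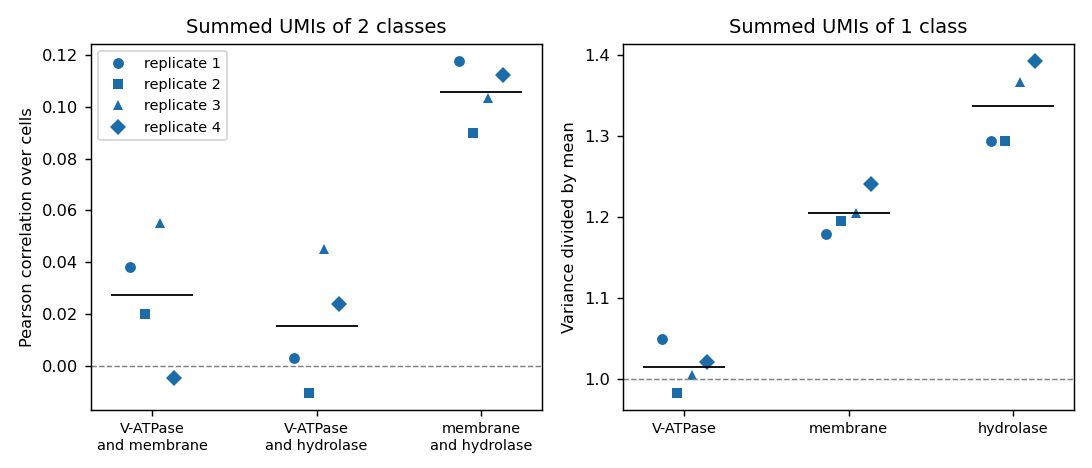
Left, Pearson correlation over reference cells of the summed UMIs of each pair of classes, and right, variance divided by mean of each class sum, in cells thinned to 1000 UMIs. Symbols are the 4 libraries, bars their means, and the dashed lines mark 0 and the counting-noise value of 1. The membrane and hydrolase pair lies above 0 in all 4 libraries, and the V-ATPase ratios lie near 1.

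Among all 630 pairs of members the median correlation was 0.00251, 8 pairs had a mean above 0.05 and none above 0.1. The 5 highest pairs all held *Cd63*, *Grn* or *Psap*. They were *Lgmn* with *Grn* (mean r 0.0796 over the 4 libraries), *Cd63* with *Grn* (0.0653), *Cd63* with *Cd68* (0.0631), *Lamp1* with *Psap* (0.0566) and *Cd63* with *Psap* (0.0542). *Cd63* also had the largest ratio of variance to mean of the 27 members of at least 100 CPM, 1.37 against a median of 1.02 for these members and 1.02 for all genes at that level. Outside the list, the genes whose UMIs followed the summed members most closely included *Ctsd* (mean r 0.197), *Ctsb* (0.174), *Ctss* (0.155), *C1qb* (0.138), *C1qc* (0.126), *C1qa* (0.123), *Cd81* (0.115), *Itm2b* (0.114) and *Ctsz* (0.102). Of these, *Ctsb*, *Ctsd*, *Ctss* and *Ctsz* encode lysosomal hydrolases, and 3 genes encode chains of complement C1q. The genes named here were abundant, from 2034 CPM (*Ctsz*) to 11801 CPM (*C1qa*). Sparse counts hold down the correlations of rare genes, so the rankings of genes and of pairs favour abundant ones. The correlations share library, depth and the thinned total, and no p is given.

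Cells were next grouped by genes outside the list, counted in the thinned cells, and each state was compared with the reference cells of its own library. The states were MHC-II-high (at least 10 UMIs of *Cd74*, *H2-Aa*, *H2-Ab1* and *H2-Eb1*), interferon-high (at least 5 UMIs of 13 interferon-induced genes), Lpl/Cst7-set-high (at least 3 UMIs of *Lpl*, *Cst7*, *Lgals3*, *Spp1*, *Itgax* and *Gpnmb*, genes known from disease-associated microglia), chemokine-high (at least 3 UMIs of *Ccl3* and *Ccl4*) and immediate-early-high (at least 5 UMIs of 11 genes such as *Fos* and *Egr1*). The states are ranges of a score and not cell types: 2, 42, 27, 46 and 567 cells lay 1 UMI below the thresholds, in the order given, and a cell past more than 1 threshold was put in the first of them. The genes that define them were left out of totals and tests. Raw UMIs were summed per library and state and tested with edgeR's quasi-likelihood test with library as a block and Benjamini-Hochberg adjustment over all genes of at least 10 CPM, with calls at an adjusted p below 0.05. Fold changes include a scaling between sums (TMM, from genes of at least 100 CPM), so they need not equal the ratio of the CPM given beside them. All states were compared with nearly the same reference cells, so their results are not independent of each other and are given side by side.

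In MHC-II-high cells the hydrolase genes moved in both directions. *Gm2a*, the GM2 activator that lifts ganglioside to hexosaminidase, and *Psap* rose, while *Lgmn*, *Grn*, *Naglu* and the membrane gene *Scarb2* fell. These 51 cells (9, 7, 7 and 28 per library) had 6 of 35 members called, 2 higher and 4 lower, while 7.56% of the 7632 genes tested were called, 4.95% higher and 2.61% lower. Among genes of at least 100 CPM tested alone, 7 of 27 members (25.9%) and 31.9% of all such genes were called, so the members' share was near that of genes of like abundance. *Lgmn* was at 1610.1, 3220.02, 1708 and 2192 CPM in MHC-II-high cells and at 6429.9, 6699.6, 6645 and 6939.9 CPM in reference cells. All 4 libraries were lower and the groups did not overlap, which also held for 46.3% of all genes of at least 100 CPM (log2 fold change -1.35 ± 0.20, SE, edgeR adjusted p = 2.3e-09). *Grn* was at 788, 1396, 596 and 818 CPM against 1859, 1923, 1685 and 1804 CPM, again without overlap (-0.74 ± 0.21, SE, edgeR adjusted p = 0.0094). The *Grn* call was lost without replicate 1, 3 or 4.

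*Gm2a* was at 206, 142, 834 and 229 CPM in MHC-II-high cells and at 134, 135, 136 and 161 CPM in reference cells. It was higher in 4 of 4 libraries, most of all in replicate 3, and the groups overlapped (log2 fold change 1.38 ± 0.29, SE, edgeR adjusted p = 4.8e-05). It was not called by DESeq2, without replicate 3 (log2 fold change 0.74), in cells thinned to 1000 UMIs (0.34) or without the 1% of cells with most UMIs (0.54). *Psap* was at 2569, 3875, 3575 and 4013 CPM against 2679.6, 2806, 2628 and 2802 CPM, higher in 3 of 4 libraries (0.65 ± 0.19, SE, edgeR adjusted p = 0.014). Its call was lost with DESeq2 size factors (log2 fold change 0.41), by DESeq2 (0.41), on totals (0.35), with factors from all genes (0.11), at the stricter threshold (0.46), in thinned cells (0.26), without the 1% of cells with most UMIs (0.56) and without replicate 1, 3 or 4 (0.55 to 0.76). *Scarb2* was at 68.5, 85.5, 79.4 and 21.8 CPM against 179, 185, 157 and 162 CPM (-1.42 ± 0.47, SE, edgeR adjusted p = 0.034), on 2 or 3 UMIs per library, and it was not called by DESeq2 (-1.58), without replicate 1 (-1.51) or without replicate 4 (-0.90). The *Scarb2* call was also lost without the filter on low genes and without the 1% of cells with most UMIs. *Naglu*, an enzyme of heparan sulfate breakdown, had 0, 4, 0 and 2 UMIs, or 0, 114, 0 and 21.8 CPM, against 126, 133, 133 and 155 CPM (-1.78 ± 0.54, SE, edgeR adjusted p = 0.017). The *Naglu* estimate was -3.09 without replicate 2, and the call was lost by DESeq2 (-2.06) and without replicate 1 (-1.54), 3 (-1.58) or 4 (-1.31). The regulators were not called. *Tfeb* was at 34.3, 57.0, 79.4 and 54.5 CPM against 33.3, 38.7, 37.2 and 31.5 CPM (1.0 ± 0.60, SE, edgeR adjusted p = 0.43), on 1 to 5 UMIs per library, and *Mcoln1* had 0 or 1 UMI per library (-1.05 ± 1.05, SE, edgeR adjusted p = 0.74).

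The V-ATPase class had 0 of 14 tested members called in MHC-II-high cells, with a median log2 fold change of -0.14, against -0.40 for the 14 hydrolases, -0.11 for the 5 membrane genes and -0.11 for all genes tested. On totals, the hydrolase class of MHC-II-high cells summed to 6989, 11626, 8421 and 10054 CPM against 14949, 15542, 14767 and 15580.5 CPM in reference cells. The other classes were also lower on totals in all 4 libraries, the V-ATPase class at 0.792, 0.843, 0.524 and 0.883 times and the membrane class at 0.652, 0.967, 0.767 and 0.688 times the reference level. Of 60 other lysosomal genes tested, 4 rose (*Ctsc*, *Lamtor5*, *Naaa* and *Npc2*) and 12 fell, among them *Ctsd*, *Ctsl*, *Cd9* and *Cd81*. Markers of other cells moved with these results. The 10 microglial markers summed to 7509 to 19597 CPM in MHC-II-high cells, against 38839 to 40524 CPM in reference cells. The border macrophage markers summed to 583 to 1612 CPM (5.74 to 61.8 in reference cells), monocyte markers to 409.97 to 2807 CPM (6.12 to 11.0 in reference cells) and dendritic cell markers to 0 to 694 CPM. Their part in the result was not tested. The split also moved with the scaling. It was 2 higher and 4 lower with factors from genes of at least 100 CPM, 1 and 11 with factors from all genes tested, which put the median of all genes at -0.58 instead of -0.11, 1 and 6 with DESeq2 size factors, and 0 and 4 with DESeq2's own test, which called 5.63% of all genes. Between 2 and 6 members were called when 1 library was left out, with 2 without replicate 1, 3 or 4, and *Lgmn* was called in each. In thinned cells *Lgmn* and *Grn* were called and the other 4 were not.

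Interferon-high cells had higher *Gm2a* and lower *Hexa*, the enzyme subunit that its product serves. These were the only members called in the 83 cells (36, 18, 15 and 14 per library). The 2 calls among 35 members (5.71%) stood against 5.52% of all genes tested, 4.31% higher and 1.21% lower. The members' share was thus near that of all genes. *Gm2a* was at 331, 222, 231 and 411 CPM against 134, 135, 136 and 161 CPM in reference cells. It was higher in 4 of 4 libraries without overlap, as 32.6% of genes of at least 100 CPM were without overlap in either direction (log2 fold change 1.21 ± 0.23, SE, edgeR adjusted p = 5.1e-06). *Hexa* was at 662, 1111, 975 and 658 CPM against 1340.4, 1459.5, 1222 and 1316 CPM, lower in all 4 without overlap (-0.57 ± 0.17, SE, edgeR adjusted p = 0.021). It was not called without replicate 1 (-0.41), without replicate 3 (-0.68), in thinned cells (-0.37) or at a looser threshold of 3 UMIs (-0.18). DESeq2 called *Gm2a* as higher and *Hexa* and *Lgmn* as lower, with 4.26% of all genes called. *Lgmn* was at 5031, 5553, 4847 and 3661 CPM and was not called (-0.38 ± 0.16, SE, edgeR adjusted p = 0.19). *Tfeb* (0.65 ± 0.53, SE, edgeR adjusted p = 0.72) and *Mcoln1* (-0.50 ± 0.78, SE, edgeR adjusted p = 0.88) were not called, on 2 to 4 and 0 to 2 UMIs per library.

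Of the 60 other lysosomal genes 0 rose and 4 fell in interferon-high cells, among them *Cd9*, *Ctsd* and *Ctsf*. Monocyte markers summed to 201 to 4457 CPM in these cells border macrophage markers to 36.6 to 1904 CPM and microglial markers to 16793 to 28726 CPM, and their part in the result was not tested. The medians of the classes were near that of all genes, -0.08, with -0.04 for the V-ATPase class, 0.01 for the membrane class and -0.20 for the hydrolase class. Among genes of at least 100 CPM tested alone, 4 of 27 members (14.8%) and 21% of all such genes were called, with *Atp6v0e* (0.55 ± 0.20, SE, edgeR adjusted p = 0.029) and *Atp6v1f* (0.52 ± 0.20, SE, edgeR adjusted p = 0.047), subunits of the V0 and V1 sectors, added as higher. With factors from all genes tested the split was 1 higher and 3 lower. At a stricter threshold for the state, 8 UMIs, 0 of 35 members were called by edgeR, with 4 at an unadjusted p under 0.05.

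In cells high in the Lpl/Cst7 set the membrane genes *Cd63* and *Cd68* and the hydrolase gene *Psap* were at higher levels than in reference cells, and these 3 passed the test that a looser threshold allowed. There were 11 such cells (2, 4, 3 and 2 per library), too few for a test, so pooled levels are given with exact Poisson 95% intervals that cover counting error only. *Cd63* was at 2554 CPM (2078 to 3107) against 742 CPM in reference cells. *Cd68* was at 2018 CPM (1598 to 2515) against 1033 CPM, and *Lamp1* at 1839 CPM (1439 to 2316) against 1308 CPM, though *Lamp1* did not pass at the looser threshold (log2 fold change 0.25 ± 0.20, SE, edgeR adjusted p = 0.83) and was lower than in reference cells in replicate 2 there (1143 against 1372 CPM). *Lamp2* (358 CPM, 196 to 599.99, against 489 CPM) and *Scarb2* (102 CPM, 27.8 to 262, against 173 CPM) had intervals that held the reference level. The membrane class as a whole was at 6871 CPM (6074 to 7743) against 3745 CPM.

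Within the hydrolases the pooled intervals of *Psap*, *Lipa* and *Gaa* lay above the reference level and that of *Lgmn* below it. *Psap* was at 4215 CPM (3596 to 4909) against 2744 CPM, *Lipa*, the acid lipase that frees cholesterol from lipoproteins, at 409 CPM (234 to 664) against 112 CPM on 16 UMIs, and *Gaa* at 229.9 CPM (105 to 436) against 76.6 CPM on 9 UMIs. *Lgmn* was lower, at 3678 CPM (3102 to 4330.4) against 6686 CPM, and the class as a whole was at 13052 CPM (11945 to 14235) against 15276 CPM. *Lgmn* gave 144 of the 511 UMIs of the class and was the only hydrolase with an interval below the reference level. The lower class sum therefore leans on *Lgmn* and does not describe the other hydrolases. Of the V-ATPase genes *Atp6v1b2* had an interval above the reference level, 281 CPM (140.3 to 503) against 94.5 CPM on 11 UMIs, and the class was at 4087 CPM (3478 to 4771) against 3496 CPM. *Tfeb* and *Mcoln1* had 0 UMIs of 39150, each with an interval of 0 to 94.2 CPM. These intervals held the reference levels of 35.5 and 28.4 CPM.

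**Figure D3:**
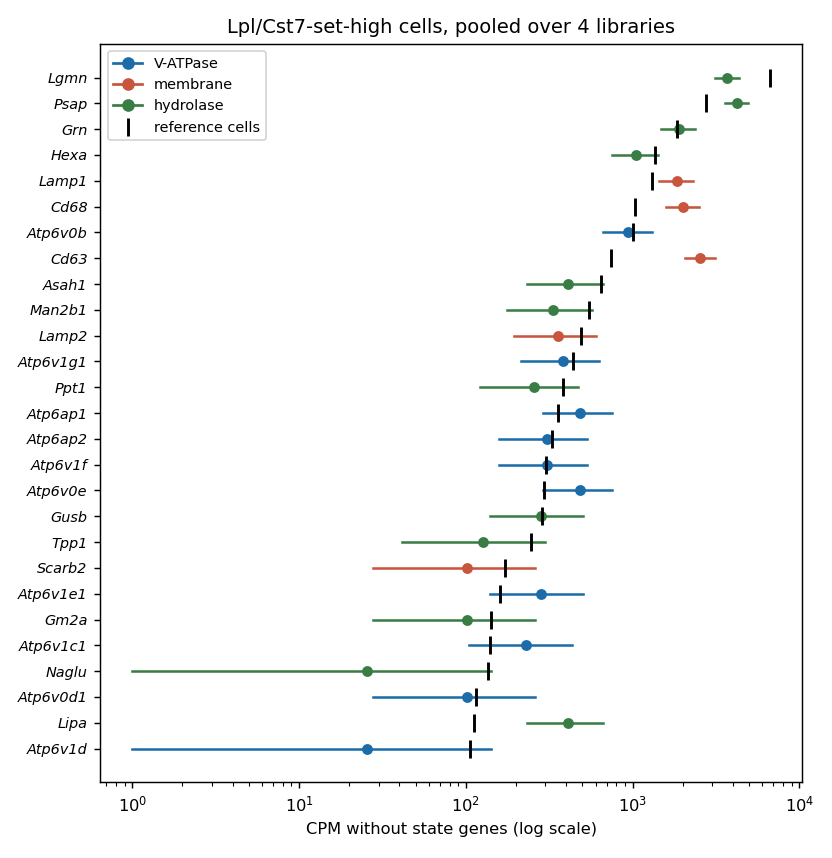
Level (CPM without the state genes, log axis) of the 27 members of at least 100 CPM in the 11 Lpl/Cst7-set-high cells pooled over the 4 libraries, with exact Poisson 95% intervals (lower ends under 1 are drawn at 1), and in reference cells as vertical ticks. *Cd63*, *Cd68*, *Lamp1*, *Psap* and *Lipa* lie with their intervals above the reference tick and *Lgmn* below it.

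At a looser threshold of 2 UMIs each library had 7 or 8 such cells, which allowed a test. Cells past the main threshold also pass this one, unless an earlier state took them. The test therefore reuses such cells and is no separate check of the pooled levels. In it 3 of 35 members were called, all higher, against 1.19% of all genes tested, 0.996% higher and 0.197% lower. Among genes of at least 100 CPM tested alone, 3 of 27 members (11.1%) and 4.95% of all such genes were called. *Cd63* was at 1879, 1715, 4130.5 and 2359 CPM against 756, 816, 655 and 654 CPM. It was higher in 4 of 4 libraries, highest in replicate 3 (log2 fold change 1.81 ± 0.19, SE, edgeR adjusted p = 4.1e-18). *Cd68* was at 1480.3, 1363, 3177 and 1961 CPM against 1012, 998, 1087 and 1063 CPM (0.94 ± 0.19, SE, edgeR adjusted p = 0.00019). *Psap* was at 3416, 3957, 4607 and 3888 CPM against 2667, 2804, 2615 and 2785.5 CPM (0.59 ± 0.17, SE, edgeR adjusted p = 0.041). *Cd68* and *Psap* were higher in all 4 libraries too. *Cd63* was called with each library left out, *Cd68* was not called without replicate 3, and *Psap* was not called with any 1 library left out. The *Psap* call was also lost with DESeq2 size factors, by DESeq2 and on totals. DESeq2 called *Cd63* and *Cd68* as higher and *Lgmn* as lower, with 0.799% of all genes called. With factors from all genes tested *Cd63* rose, *Atp6v1d*, *Lgmn* and *Naglu* fell, and *Psap* was at -0.03 on the log2 scale.

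*Lipa* was at 171, 528, 159 and 166 CPM at this looser threshold against 111, 120.1, 104 and 107 CPM, highest in replicate 2, and was not called (1.24 ± 0.42, SE, edgeR adjusted p = 0.16). *Atp6v1b2* (1.35 ± 0.44, SE, edgeR adjusted p = 0.13) and *Gaa* (0.87 ± 0.55, SE, edgeR adjusted p = 0.83) were not called either. By this edgeR test *Lgmn* was not called, at 4669, 4440.5, 4925 and 5217 CPM against 6428, 6707, 6644 and 6918 CPM (-0.42 ± 0.16, SE, edgeR adjusted p = 0.31), nor were *Tfeb* (0.01 ± 1.01, SE, edgeR adjusted p = 0.999) and *Mcoln1* (-1.28 ± 1.50, SE, edgeR adjusted p = 0.93), on 0 to 2 UMIs per library. Of 60 other lysosomal genes 3 rose, *Cd9*, *Ctsb* and *Ctsz*, and 0 fell. In the 11 cells of the main threshold the monocyte and dendritic cell markers were at 0 in every library and the border macrophage markers at 0 to 76.6 CPM, 1 UMI in all, while microglial markers were at 13848 to 27215 CPM. *Cd63* is itself widely listed among the genes of disease-associated microglia.

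In chemokine-high cells *Cd63* was again the member that rose, and it was the only one of 35 called, against 0.131% of all genes tested. Among genes of at least 100 CPM tested alone, 1 of 27 members (3.70%) and 0.707% of all such genes were called. There were 24 chemokine-high cells (5, 3, 7 and 9 per library), and replicates 1, 3 and 4 had enough for the test. *Cd63* was at 819, 1602 and 1421 CPM against 760.3, 663 and 664 CPM (log2 fold change 0.93 ± 0.21, SE, edgeR adjusted p = 0.0099), higher in 3 of 3 libraries, though barely so in replicate 1. The groups did not overlap, as was so for 20.2% of genes of at least 100 CPM. It was not called without replicate 3 or without replicate 4, in cells thinned to 1000 UMIs, or by DESeq2, which called 0.0524% of all genes, and factors from all genes tested gave 0 higher and 2 lower (*Hexa* and *Lgmn*). *Tfeb* (-0.98 ± 1.66, SE, edgeR adjusted p = 0.999) and *Mcoln1* (0.84 ± 1.20, SE, edgeR adjusted p = 0.999) had 0 to 2 UMIs per library. Of the other lysosomal genes *Cd9* and *Ctsb* rose and 0 fell.

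Immediate-early-high cells differed from reference cells in none of the 35 members tested. They numbered 671, of which 543 were in replicate 4 and 38, 70 and 20 in replicates 1 to 3. Replicate 4 is the last library in label order, and the study's text gives the final animal a repeated sort with added time at room temperature. The part of that handling in these values was not tested. The count of 0 by edgeR stood beside 1 member at an unadjusted p under 0.05, *Tfeb*, and 0 by DESeq2, and edgeR called 0.262% and DESeq2 0.0131% of all genes. *Tfeb* was at 58.8, 41.8, 63.4 and 42.7 CPM against 33.3, 38.7, 37.2 and 31.5 CPM, higher in 4 of 4 libraries on 4, 8, 3 and 67 UMIs (log2 fold change 0.44 ± 0.19, SE, edgeR adjusted p = 0.91). Its groups did not overlap, as was so for 4.18% of all genes of at least 100 CPM, a set of more abundant genes that *Tfeb* is not in. *Mcoln1* was at 29.4, 20.9, 0 and 29.3 CPM (-0.02 ± 0.23, SE, edgeR adjusted p = 0.999). *Lgmn* was at 6287, 6494, 6124 and 7032 CPM against 6429.9, 6699.6, 6645 and 6939.9 CPM (-0.02 ± 0.04, SE). The summed hydrolases were at 0.918 to 1.01 times, the membrane genes at 0.975 to 1.03 times and the V-ATPase genes at 0.977 to 1.11 times the reference level.

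**Figure D4:**
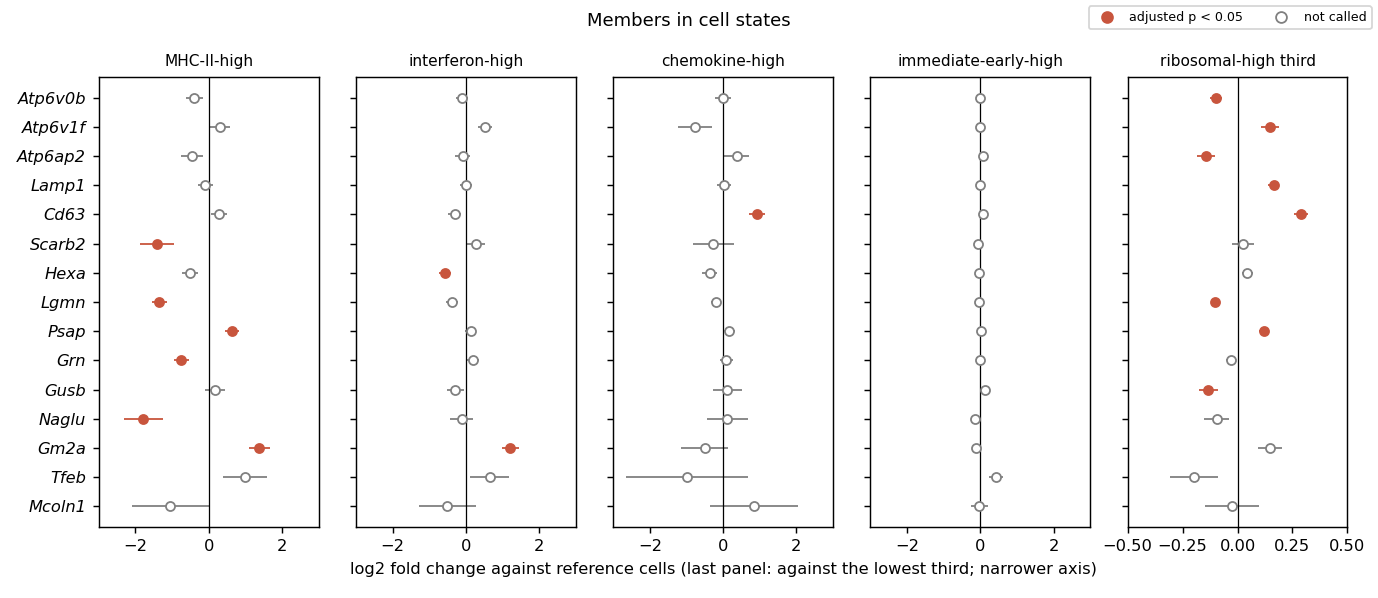
Log2 fold change (points) and its standard error (bars) of the members called in any of the 5 comparisons shown and of *Tfeb* and *Mcoln1*, for 4 states against reference cells and, on a narrower axis, for reference cells with the highest against the lowest ribosomal share (the third of cells at either end). Filled points are called by edgeR. *Lgmn* lies at -1.35 in MHC-II-high cells, and in immediate-early-high cells all points are open.

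The reference cells were last split by the share of their UMIs from ribosomal protein genes, the third of each library with the highest share against the third with the lowest, 3965 cells each, with these genes left out of totals and tests. The members moved by small amounts in both directions. Higher were *Cd63*, *Lamp1*, *Atp6v1f* and *Psap*, and lower were *Atp6ap2*, *Gusb*, *Lgmn* and *Atp6v0b*, 8 of 35 members against 8.72% of 7549 genes, 4.66% higher and 4.05% lower. Among genes of at least 100 CPM tested alone, 10 of 27 members (37.0%) and 37.5% of all such genes were called, so the share among members was that of genes of like abundance. *Cd63* was at 942, 953, 816 and 828 CPM in the cells with the highest share and 728, 839.9, 636 and 669 CPM in those with the lowest. It was higher in 4 of 4 libraries, while the ranges overlapped (log2 fold change 0.29 ± 0.03, SE, edgeR adjusted p = 1.5e-10). *Lamp1* was at 1509, 1606, 1349.7 and 1500.1 CPM against 1339.65, 1412, 1280.4 and 1286 CPM (0.16 ± 0.03, SE, edgeR adjusted p = 3.4e-06).

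*Psap* was at 3129, 3193, 2922 and 3257 CPM against 2808, 2971, 2812 and 2874 CPM (0.12 ± 0.02, SE, edgeR adjusted p = 4.6e-05), and *Atp6v1f* at 347, 354, 349 and 318 CPM against 288, 343, 299 and 289.8 CPM (0.15 ± 0.04, SE, edgeR adjusted p = 0.017). Both were higher in 4 of 4 libraries. *Lgmn* was at 6895, 7087, 6921 and 7283 CPM against 7335, 7548, 7623 and 7738 CPM, lower in all 4 without overlap, as 17.7% of genes of at least 100 CPM were in either direction (-0.10 ± 0.02, SE, edgeR adjusted p = 2.1e-05). *Atp6v0b* (-0.10 ± 0.03, SE, edgeR adjusted p = 0.012), *Atp6ap2* (-0.14 ± 0.04, SE, edgeR adjusted p = 0.012) and *Gusb*, beta-glucuronidase (-0.13 ± 0.04, SE, edgeR adjusted p = 0.035), were lower in 4 of 4 libraries too. *Tfeb* (-0.20 ± 0.11, SE, edgeR adjusted p = 0.31) and *Mcoln1* (-0.03 ± 0.12, SE, edgeR adjusted p = 0.95) were not called.

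**Figure D5:**
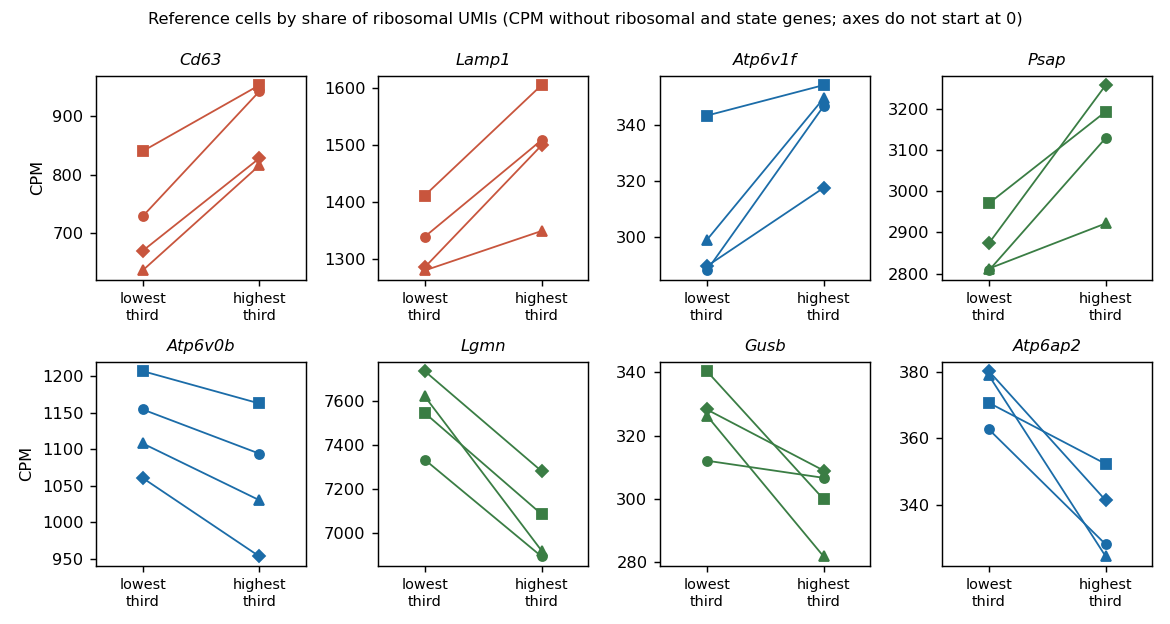
CPM without ribosomal and state genes of the 8 called members in the third of reference cells with the lowest and the third with the highest ribosomal share, with 1 line per library (circle, square, triangle and diamond for replicates 1 to 4). Axes do not start at 0. *Cd63* rises in each library, from 636 to 839.9 CPM up to 816 to 953 CPM, and *Lgmn* falls in each.

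The membrane class was at 1.09, 1.06, 1.04 and 1.10 times its level in the cells with the lowest share, against 0.972 to 1.02 for the V-ATPase class and 0.958 to 1.01 for the hydrolases. Among 60 other lysosomal genes 6 rose (*Ctsh*, *Ctss*, *Ids*, *Lamtor1*, *Lamtor4* and *Npc2*) and 7 fell (among them *Cd164*, *Cd9*, *Ctsd*, *Pla2g15*, *Smpd1* and *Tmem55b*). The calls rest on the library block: without it 0 of 35 members passed by edgeR, with 8 at an unadjusted p under 0.05, and DESeq2 with the block called 3 higher and 1 lower, with 3.25% of all genes called. DESeq2 size factors in edgeR gave 5 higher and 2 lower. Cells with the highest share were deeper, with medians of 2039 to 3116 UMIs per library against 1753 to 2725, and in cells thinned to 1000 UMIs *Cd63*, *Lamp1*, *Psap*, *Atp6v1f*, *Lgmn* and *Atp6v0b* were called in the directions given. Leaving out 1 library gave 4 to 7 called members, with 4 without replicate 4 and 5 without replicate 3.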

How the data were processed

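Single-cell RNA-seq libraries (10x Genomics 3′, second kit version) of 4 mice were processed by the authors with Cell Ranger 2.2.0 against mm10 (GRCm38), and the deposited values were raw UMI counts per gene and cell, not normalised. Cells were kept with 400 genes or more and a mitochondrial share of 10% or less. No doublet caller was run. CPM are counts per 1000000 UMIs of the summed cells. States were defined in cells thinned to 1000 UMIs, and their raw counts were summed per library (at least 5 cells in at least 3 libraries) and tested with edgeR 4.0.16 (quasi-likelihood, library as a block because both sums come from the same mouse), with DESeq2 1.42.0 as an alternative, in R 4.3.3. TMM factors were taken from genes of at least 100 CPM. This departs from the planned factors over all genes of at least 10 CPM, which shifted unchanged genes in simulated sums of few cells, and the planned version is given as an alternative chosen after the data were seen. Libraries were compared by Dixon's range test with a pseudocount of 1. Depth was 5841671 to 11267195 UMIs per library, and intervals cover counting error only. Named were the 5 highest members of each class, members with 1 library apart or the 3 largest spreads, called members of each comparison with *Tfeb* and *Mcoln1*, the 5 highest pairs and the 10 genes most like the summed members, of which 1 is not reported here. Members and lists were chosen with earlier results of these data known. Alternatives covered scaling, filters, thresholds, depth, the block, the test and each library left out. Promoters came from RefSeq (GRCm38.p6), and *Atp6v1b2*, *Atp6v1c1*, *Atp6v1g1*, *Atp6v1h* and *Asah1* had no entry. Dixon's test measures the spread between these 4 mice. The blocked tests measure how the difference inside each library varied over the mice, 3 of them for chemokine-high cells.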

Additional observations from a re-analysis of the deposited data

Results flagged for a closer look

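In groups of 4 libraries, 1 was set apart from the other 3 by Dixon's range test (gap over range, above the 95% critical value) in these cases, and chance gives such a result in about 1 in 20 groups. *Asah1* over all cells was high in replicate 4 (ratio 0.836), with 675 CPM against 637 to 643 CPM. *Gm2a* in the reference cells of the MHC-II and interferon comparisons was also high in replicate 4 (ratio 0.914), with 161 CPM against 134 to 136 CPM. *Scarb2* in MHC-II-high cells was low in replicate 4 (ratio 0.836), at 21.8 CPM on 2 UMIs. *Mcoln1* was low in replicate 4 of the interferon-high cells (ratio 0.897) and in replicate 3 of the immediate-early-high cells (ratio 0.904), both with 0 UMIs. The summed level of all members in immediate-early-high cells was low in replicate 3 (ratio 0.844), at 21034 CPM in 20 cells against 22483 to 22751 CPM.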

How the results depend on the processing

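Called members numbered 6 in MHC-II-high cells and 12 with TMM over all genes tested, 2 in thinned cells, 3 without the 1% of cells with most UMIs, and 2 to 6 with 1 library left out. In interferon-high cells 2 were called, against 4 among genes of at least 100 CPM alone, 4 with TMM over all genes, 4 on totals without TMM, 1 at the looser and 0 at the stricter threshold, and 1 to 2 with 1 library left out. Lpl/Cst7-set-high cells allowed a test at the looser threshold only, with 3 called there, 5 with no replicate block and 1 to 2 with 1 library left out. The 1 chemokine call became 0 with DESeq2 size factors, by DESeq2 and in thinned cells, 2 with TMM over all genes, and 0 to 1 with 1 library left out. The 8 ribosomal calls became 4 by DESeq2, 4 to 7 with 1 library left out, and 0 with no replicate block. Without the block 6, 3, 1 and 0 members were called in MHC-II-high, interferon-high, chemokine-high and immediate-early-high cells. Members with 1 library apart numbered 1, and 3 on TMM-scaled CPM, 2 on DESeq2-scaled CPM, 2 in reference cells, 2 in cells of at least 1000 genes and 2 without the 1% of cells with most UMIs, with *Asah1* among them on TMM-scaled CPM alone of these 5. At 2000 UMIs per cell the membrane–hydrolase correlation was 0.157 and the ratios of variance to mean were 1.06, 1.39 and 1.47 (V-ATPase, membrane, hydrolase). At 1000 UMIs the hydrolase ratio was 1.23 without *Lgmn*, at a mean of 8.52 UMIs, against 1.34 with it, at a mean of 15.3 UMIs. Directions turned for *Psap* in Lpl/Cst7-set-high cells with TMM over all genes (-0.025) and otherwise for the uncalled regulators: *Tfeb* in Lpl/Cst7-set-high cells with DESeq2 size factors (-0.13), DESeq2 (-0.21), TMM over all genes (-0.60), totals (-0.043), no replicate block (-0.0073) and leaving out replicate 1 or 4 (range over libraries left out -1.26 to 0.46), *Tfeb* in chemokine-high cells at the looser threshold (0.26), *Mcoln1* there (-0.17, and -8.34 in thinned cells), in immediate-early-high cells without replicate 2 or 3 (range -0.54 to 0.030) and at the looser (0.12) and stricter (0.13) thresholds, and between the ends of the ribosomal share without replicate 1 or 4 (range -0.14 to 0.046), with wider (0.061) and narrower (0.13) ends and thinned cells (0.0073). Of 482 alternatives for single genes 462 kept the direction, and 83 lost the call. The causes were not tested. Few cells and low UMI counts per state limit all state comparisons but the ribosomal one. In the immediate-early comparison this holds for replicates 1 to 3, with 38, 70 and 20 cells against 543 in replicate 4. Stricter thresholds left too few libraries for chemokine-high and Lpl/Cst7-set-high cells, and thinned and trimmed versions of the latter were not run.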

Other observations

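Reference cells were also split by their total UMIs, after the other results were seen, the third of each library with most UMIs against the third with fewest. The membrane class was at 1.06, 1.06, 1.04 and 1.09 times its level in the cells with fewest UMIs in replicates 1 to 4, while the hydrolase class was at 0.952, 0.960, 0.936 and 0.971 times and the V-ATPase class at 0.990, 0.980, 0.940 and 0.980 times. *Cd63* was at a mean of 778 CPM in the cells with most UMIs and 693 CPM in those with fewest, and *Atp6v0b* at 944 and 1081 CPM. No test was run on this split.

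Among genes outside the list with at least 10 CPM, *Tmsb4x* (mean r -0.133) and *Malat1* (-0.104) had the most negative within-library correlation with the summed members over reference cells, as a description of counts thinned to a fixed total.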
